A study of Mus musculus with 6 samples.

Results

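The 8 genes described here encode surface and secreted proteins through which tumor and myeloid cells restrain or assist T cells, 7 of them ligands and CD40 a receptor: Cd274 (PD-L1), Pdcd1lg2 (PD-L2), Cd80, Cd86, Lgals9 (galectin-9), Pvr (CD155), Vsir (VISTA) and Cd40. They were taken by name as 8 of the 32285 gene rows of 2 single-cell matrices. Their RNA was measured in tumor-infiltrating cells at day 13 and day 19 after intracranial growth of CT2A, a mouse glioma line. The RNA of 5 of them, Cd274, Pdcd1lg2, Cd80, Cd86 and Cd40, was high together in barcodes with both Fscn1 and Ccr7, genes of mature dendritic cells. Lgals9 and Vsir were low in the same barcodes. In CD8 and CD4 T barcodes the day-19 level of Pdcd1lg2 was above that of day 13, while Lgals9 and Cd40 were below it. RNA outside cells differed in the same direction for each of these genes. In T barcodes without myeloid RNA the ranges of the days overlapped for Cd40, and in CD4 also for Pdcd1lg2 and Lgals9.

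PD-L1 and PD-L2 bind PD-1 on T cells and dampen signalling through the T cell receptor. CD80 and CD86 deliver costimulation through CD28 and are captured by CTLA-4, and CD80 also binds PD-L1 on the same cell. CD40 is the receptor on antigen-presenting cells through which CD40 ligand on CD4 T cells drives maturation, signalling through TRAF proteins and NF-kB. Galectin-9 binds TIM-3, CD155 binds TIGIT, CD96 and the activating receptor CD226, and VISTA binds PSGL-1 on T cells. In brain tumors such ligands are known on macrophages, microglia and dendritic cells, and interferon gamma from T cells is a known inducer of PD-L1.

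Per the labels, the cells were sorted as CD3+ cells with CD4 or CD8 from tumors in wild-type C57BL/6J mice aged 6 to 8 weeks, with no treatment named. The day-13 sample came from 16 mice in replicates of 4 pooled mice, and the day-19 sample from 4 mice. All groups share the strain and the tumor line, and each day is 1 capture of 10x Genomics 5' libraries, aimed at 10000 cells, with gene, antibody tag and T cell receptor (TCR) libraries. The labels tie no barcode, multiplexing tag or TCR table to a mouse or pool, so each day counted as 1 sample and no test was run between days or classes. Day, capture and staining cannot be told apart, and every interval below covers counting error only.

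A barcode entered with at least 5000 gene UMIs (unique molecular identifiers, each marking 1 captured molecule) and at most 10% mitochondrial UMIs. This left 8878 barcodes at day 13 and 4667 at day 19, with median depths of 9500.5 and 11214 gene UMIs. T barcodes were those with an assembled TCR contig and RNA of Cd8a or Cd8b1 without Cd4 (2959 and 1800 CD8 T barcodes at day 13 and day 19) or of Cd4 without Cd8 (797 and 794). The other classes were barcodes outside the TCR tables with 0 UMIs of Cd3d, Cd3e and Cd3g and at least 2 UMIs of exactly 1 of 4 genes. Fscn1, an actin-bundling gene of mature dendritic cells, gave 182 and 42 barcodes, and Cd209a, a lectin of monocyte-derived and type 2 dendritic cells, gave 153 and 58. Vcan, a monocyte gene, gave 49 and 11, and Gpnmb, a gene of lipid-laden macrophages, gave 84 and 7. The days shared 62 barcode sequences past the rule, 22 of them within these classes. Levels are summed UMIs of a class scaled to a total of 1000000 gene UMIs (CPM), and since 5' counts do not scale with length alone, levels are compared within a gene and never between genes.

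The CD3+ label did not describe the classes outside the TCR tables. Of a list of T cell genes, the 9 that the rule did not use summed to between 9.49 and 83.6 CPM in them, against between 2210 and 2667 CPM in the T barcodes. The classes also did not follow their split gene alone. Of the 182 Fscn1 barcodes at day 13, 100 had at least 2 UMIs of Ccr7, the chemokine receptor that guides dendritic cells to lymph nodes, and 80 of the 82 others had none. Without Ccr7, 74 of the 82 had at least 2 UMIs of the microglia genes P2ry12, Tmem119 and Gpr34, against 7 of the 100 with Ccr7. At day 19 these were 15 of 16 and 3 of 26. A list of mature dendritic cell genes, 9 without Fscn1 and Ccr7, summed to 7221 and 7284 CPM at day 13 and day 19 with Ccr7 and to 346 and 77.2 CPM without it. A list of 7 microglia genes ran the other way, with 607 and 405 CPM against 14272 and 12598 CPM. The Fscn1 class is therefore given below both whole and divided by Ccr7, a division chosen after these marker levels were seen. No doublet caller was run, and the values without the deepest barcodes are in the closing section.

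By the RefSeq annotation of GRCm38.p6, the build to which the submitters' mm10 corresponds, Cd274 (chr19:29362107-29388095) and Pdcd1lg2 (chr19:29410919-29472927) are neighbours, 22823 bases apart. Cd80 (chr16:38457430-38495958) and Cd86 (chr16:36568956-36666158) share a chromosome, while Cd40 (chr2:165055614-165071654), Lgals9 (chr11:78962979-78984924), Pvr (chr7:19903578-19921143) and Vsir (chr10:60346851-60430294) lie alone. RefSeq promoter windows, 250 bases before to 50 bases after a start, were found for 5 of the 8 genes. They are shown for the 2 neighbouring PD-1 ligands, which were high together in the Ccr7 barcodes, and for Lgals9 and Vsir, which were low there. Lower case is the reference sequence, read 5′ to 3′ on the gene's strand, and capitals mark motif matches.
Cd274, chr19:29367188-29367487, plus strand: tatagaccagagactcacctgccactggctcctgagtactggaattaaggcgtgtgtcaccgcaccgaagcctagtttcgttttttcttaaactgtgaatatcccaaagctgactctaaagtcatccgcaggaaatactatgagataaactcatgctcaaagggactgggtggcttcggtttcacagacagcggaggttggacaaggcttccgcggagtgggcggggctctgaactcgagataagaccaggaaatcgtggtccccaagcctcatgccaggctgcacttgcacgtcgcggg
Pdcd1lg2, chr19:29410669-29410968, plus strand: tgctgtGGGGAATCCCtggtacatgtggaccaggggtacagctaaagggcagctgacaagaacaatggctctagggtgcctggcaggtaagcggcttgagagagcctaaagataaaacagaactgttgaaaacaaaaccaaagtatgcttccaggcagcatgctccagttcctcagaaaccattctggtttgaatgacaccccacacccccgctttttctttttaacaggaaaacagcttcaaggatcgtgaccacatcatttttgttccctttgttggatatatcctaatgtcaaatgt
Lgals9, chr11:78984875-78985174, minus strand: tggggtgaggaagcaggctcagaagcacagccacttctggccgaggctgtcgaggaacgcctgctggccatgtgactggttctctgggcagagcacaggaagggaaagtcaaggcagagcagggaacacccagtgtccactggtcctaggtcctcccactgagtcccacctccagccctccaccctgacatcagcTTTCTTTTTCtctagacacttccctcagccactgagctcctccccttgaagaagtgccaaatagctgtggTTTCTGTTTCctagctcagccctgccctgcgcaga
Vsir, chr10:60346601-60346900, plus strand: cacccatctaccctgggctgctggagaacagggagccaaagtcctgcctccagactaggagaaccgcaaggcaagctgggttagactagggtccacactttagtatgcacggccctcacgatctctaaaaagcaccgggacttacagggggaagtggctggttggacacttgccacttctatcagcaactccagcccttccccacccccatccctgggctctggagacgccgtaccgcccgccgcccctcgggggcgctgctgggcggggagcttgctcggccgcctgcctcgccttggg
Matches on both strands are given for 2 motifs. The paired site of interferon regulatory factors, GAAA, any 2 bases and GAAA again, matched at 2 places in the Lgals9 window, both on the reverse strand, and in none of the 4 other member windows. It occurs in 3.44% of 32851 mouse promoter windows of 300 bases. The kappaB motif of NF-kB matched once, in the Pdcd1lg2 window, and occurs in 4.51% of windows. The 2 motifs did not overlap in these windows, and a match describes letters only.

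Against CD8 T barcodes, 7 of the 8 genes were at least 2-fold higher in the Fscn1 class on both days, where 21.7% of all genes with at least 20 UMIs were at least 2-fold higher on each day. At day 19 Pvr rested on 7 UMIs in the Fscn1 class. The calls of Vsir and Pdcd1lg2 were lost under some alternatives, which are given in the closing section. The median difference of the 8 genes was 2.02 on the log2 scale at day 13, and that of all genes tested was -0.06. Of the 8 genes, Lgals9 alone was not past 2-fold, at -0.26 and 0.29. In the Cd209a class at day 13, 4 of the 8 were higher (Cd80, Cd86, Cd40 and Pvr) and Pdcd1lg2 was lower, against 13.9% and 26.9% of all genes. Cd40 gave the largest of these differences at 3.62, from 334 CPM in the Cd209a class and 27.3 CPM in CD8 T barcodes. In the Vcan class at day 13, Cd80, Cd86, Cd40 and Lgals9 were higher (16.7% of all genes) and Pdcd1lg2, with 1 UMI, was lower (33.1%). In the Gpnmb class at day 13, Cd274, Cd86 and Cd40 were higher (17.5%) and none of the 8 was lower (21.5%). At day 19 Cd80, Cd86, Cd40, Lgals9 and Pvr were higher in the Cd209a class (15.3%) and Pdcd1lg2 and Vsir lower (26.2%). The same 5 genes were higher in the Vcan class (26%) and none lower (18.1%), where Pdcd1lg2 had no UMI. Pvr there had a wide interval, at 38.0 CPM (10.3 to 97.2). In the Gpnmb class, then 7 barcodes, Cd274, Cd86, Cd40, Pvr and Vsir were higher (28.8%) and none of the 7 genes tested was lower (15.3%). Cd274 rested there on 8 and Pvr on 2 UMIs, and Pdcd1lg2, with no UMI, was not tested.

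**Figure D1:**
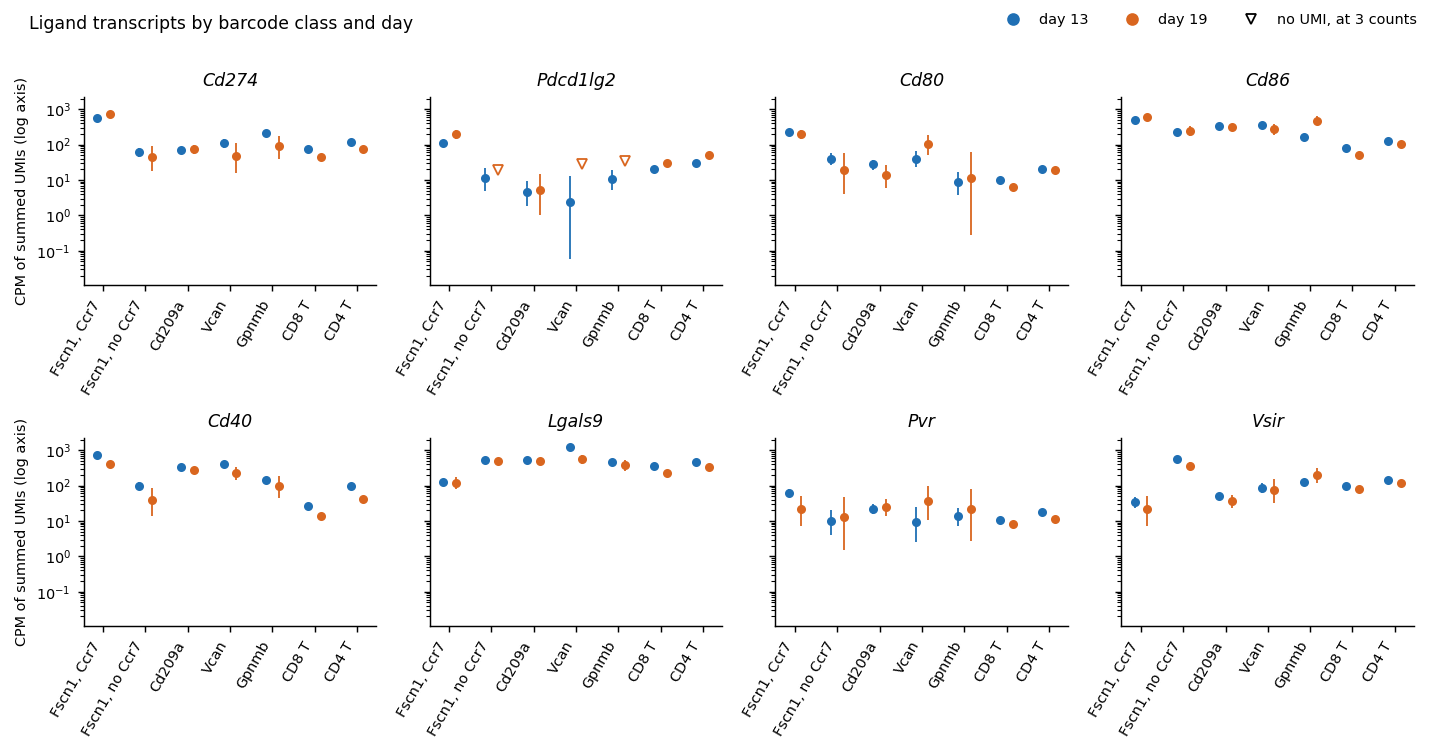
Level of each of the 8 genes (CPM of summed UMIs, log axis) in 7 barcode classes at day 13 and day 19, with exact Poisson 95% intervals as lines and open triangles at 3 counts where a class had no UMI. Cd274, Pdcd1lg2, Cd80 and Cd40 peak in the Fscn1 barcodes with Ccr7, where Lgals9 and Vsir are at their lowest.

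The whole Fscn1 class mixed opposite levels. At day 13, barcodes with Ccr7 were at least 2-fold above those without it in 6 of the 8 genes (13.8% of all genes tested) and at least 2-fold below in Lgals9 and Vsir (29.7%). At day 19, 5 of the 7 genes with enough UMIs were above (25.2%) and the same pair, Lgals9 and Vsir, was below (21.3%). The median over the 8 genes at day 13 was 2.63 on the log2 scale, and that over all genes tested was -0.34. Pvr was not tested at day 19, with 5 and 2 UMIs. The Ccr7 classes differ by gene selection and by marker lists as given above, and the part of either in these differences was not tested.

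**Figure D2:**
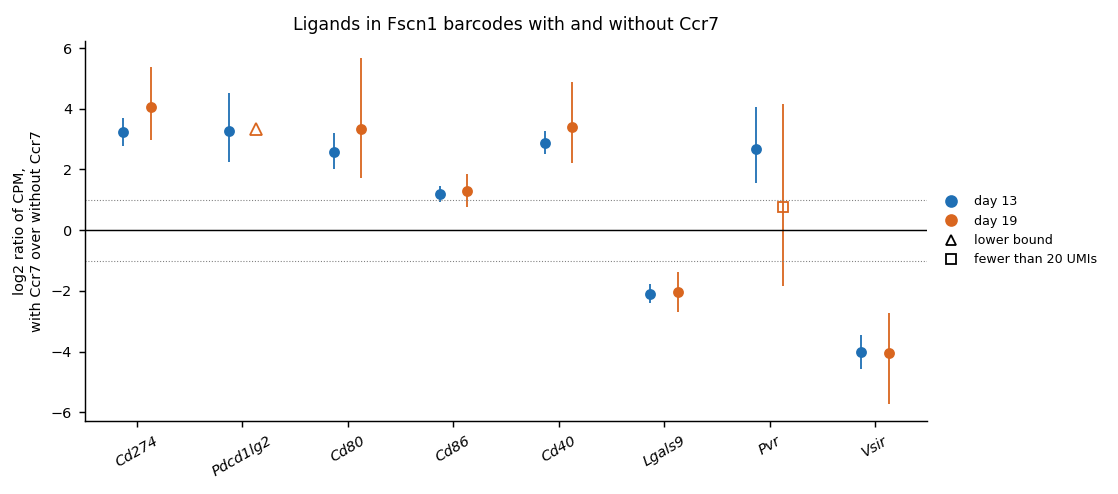
Log2 ratio of CPM for each of the 8 genes, Fscn1 barcodes with Ccr7 over Fscn1 barcodes without it, at day 13 and day 19, with exact conditional 95% intervals as lines, dotted lines at 2-fold, an open triangle for a lower bound and an open square for fewer than 20 UMIs. At day 13, 6 genes lie between 1.20 and 3.27, and Lgals9 and Vsir lie at -2.09 and -4.00.

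Cd274, the gene of PD-L1, stood at 563 CPM (95% interval 514 to 614) at day 13 and at 748 CPM (641 to 869) at day 19 in Fscn1 barcodes with Ccr7. Fscn1 barcodes without Ccr7 had 60.3 and 45.0 CPM, a log2 difference of 3.22 (2.77 to 3.71) at day 13 and 4.06 (2.98 to 5.39) at day 19. The Gpnmb class came next, with 216 CPM (187 to 248) at day 13, while its 7 barcodes of day 19 gave 89.5 CPM from 8 UMIs. CD4 T barcodes had 121 and 74.4 CPM. The Vcan class at 112 CPM (82.2 to 149) overlapped CD4 T barcodes at day 13, and Cd209a barcodes at 68.7 CPM (56.2 to 83.2) overlapped CD8 T barcodes at 74.2 CPM (71.1 to 77.5), while the Vcan class and CD8 T barcodes did not overlap. Multiplexing tags, of which the labels do not say what each stands for, could be assigned to 54 of the 100 Ccr7 barcodes at day 13, and Cd274 lay at 583, 482, 711 and 419.5 CPM in tags 1 to 4. All 4 were above the Cd274 level of every Gpnmb tag sum, the highest of which was 312 CPM.

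Pdcd1lg2, the gene of PD-L2, was narrower. Fscn1 barcodes with Ccr7 had 108 CPM (87.7 to 133) at day 13 and 196 CPM (143 to 262) at day 19, while those without Ccr7 had 11.2 CPM from 8 UMIs and 0 UMIs. At day 13 the log2 difference was 3.27, and at day 19, with a sum of 0 set to 3 UMIs over the class, Ccr7 barcodes were at least 10.1-fold higher. The Cd209a class, the other class of dendritic cell genes, held only 7 and 3 Pdcd1lg2 UMIs (4.58 and 5.06 CPM), so that Ccr7 barcodes exceeded it by 4.57 and 5.27 on the log2 scale. T barcodes lay between these ends, at 20.1 and 30.8 CPM in CD8 and 29.6 and 51.5 CPM in CD4. Pdcd1lg2 was therefore lower in Cd209a barcodes than in CD8 T barcodes, by a log2 difference of -2.14 and -2.61. For the PD-1 ligand pair, Cd274 differed less between these 2 classes, at -0.11 and 0.74.

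Cd80 and Cd86, the ligands of CD28 and CTLA-4, separated the classes unequally. Cd80 had 235 and 196 CPM in Ccr7 barcodes, 39.2 and 19.3 CPM in Fscn1 barcodes without Ccr7, 27.5 and 13.5 CPM in Cd209a barcodes and 9.87 and 6.34 CPM in CD8 T barcodes. The ratio of Ccr7 to Cd209a barcodes was 3.10 and 3.86 on the log2 scale. Cd86 was spread over every class outside the TCR tables, from 163 CPM in Gpnmb to 511 CPM in Ccr7 barcodes at day 13, against 78.2 CPM in CD8 T barcodes. Ccr7 barcodes exceeded Cd209a barcodes in Cd86 by 0.63 and 0.94, which is under 2-fold. In the Vcan class Cd80 had 40.5 CPM at day 13 and 104 CPM (52.1 to 187) at day 19. Cd86 at day 19 stood at 481 CPM (348 to 648) in the Gpnmb class. At day 13 both costimulatory genes were thus highest in the barcodes where Cd274 was highest. On both days the ratio of Ccr7 barcodes over the Cd209a class was larger for Cd80.

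Cd40 was high in more than the Ccr7 barcodes. At day 13 it stood at 731 CPM (676 to 790.3) with Ccr7, 419 CPM in the Vcan class, 334 CPM (306 to 365) in the Cd209a class, 146 CPM in the Gpnmb class and 99.5 CPM in Fscn1 barcodes without Ccr7. At day 19 the same classes had 405, 228, 268, 101 and 38.6 CPM. CD8 T barcodes had 27.3 and 14.3 CPM, so that the Ccr7 barcodes were higher by 4.75 and 4.83. Of 16 genes of CD40 and NF-kB signalling, 11 were at least 2-fold higher with Ccr7 than without at day 13 and none was lower, with a median of 1.67, against 13.8% of all genes higher. At day 19, 12 of the 13 with enough UMIs were higher, against 25.2% of all genes. Traf1, an adaptor and target of CD40 signalling, had 1279 and 1323 CPM with Ccr7 against 111 and 32.2 CPM without. Nfkbia, the NF-kB inhibitor that NF-kB itself induces, had 2823 and 2820 CPM against 1533 and 1125 CPM.

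Lgals9, the galectin-9 gene, was counted in every class, T barcodes included. At day 13 it was highest in the Vcan class at 1261 CPM, followed by Fscn1 barcodes without Ccr7 at 531 CPM, Cd209a at 521 CPM and Gpnmb at 466 CPM, the last 3 with overlapping intervals. CD4 and CD8 T barcodes had 464 and 367 CPM. Fscn1 barcodes with Ccr7 were lowest on both days, at 124 CPM (102 to 150.0) and 122 CPM (81.0 to 176). They fell short of Cd209a barcodes by -2.07 and -2.02 on the log2 scale. At day 19 the Vcan class, then 11 barcodes, had 551 CPM, Cd209a had 496 CPM, Fscn1 barcodes without Ccr7 had 495 CPM and Gpnmb had 380.4 CPM. CD4 and CD8 T barcodes then had 334 and 223 CPM, so that CD8 was more than 2-fold below the first 3 of these.

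Vsir, the VISTA gene, was highest in the Fscn1 barcodes without Ccr7, most of which had microglia genes. It stood at 549 CPM (496 to 607) and 360.1 CPM (272 to 468) in Fscn1 barcodes without Ccr7 and at 34.2 and 21.8 CPM with Ccr7, the latter from 30 and 5 UMIs. In barcodes outside the TCR tables chosen for microglia genes instead of Fscn1 (180 and 78 barcodes), 81 and 18 were also in the Fscn1 class. The 99 and 60 others had 231 (202 to 262) and 211 (178 to 249.6) CPM of Vsir. Cd209a barcodes had 51.0 and 37.1 CPM, below CD8 T barcodes at 98.7 and 77.9 CPM. The call that Vsir is higher in the whole Fscn1 class than in CD8 T barcodes (1.43 at day 13) turned to -2.47 when only barcodes with Ccr7 and without microglia genes were kept. Pvr, the CD155 gene, had 55 UMIs and 62.8 CPM (47.3 to 81.7) in Ccr7 barcodes at day 13 and 5 UMIs at day 19. Apart from the whole Fscn1 class, which holds these barcodes, the other classes plotted had between 8.01 and 38.0 CPM of Pvr, from as few as 2 UMIs in a class.

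Cd274, Cd80, Cd86 and Cd40 were each found in most Ccr7 barcodes. Each barcode was thinned to 5000 gene UMIs so that shares compare at 1 depth. In Ccr7 barcodes at day 13, 88 of 100 then had a UMI of Cd274, and 79 of these 88 also had one of Cd80 or Cd86, which 89 of the 100 had in all. Of the 33 with a Pdcd1lg2 UMI, 27 had Cd274. Both overlaps are near what the shares over all 100 barcodes give. At least 4 of the 8 genes were found in 68.0% of Ccr7 barcodes (exact interval 57.9 to 77.0%) and in 73.1% at day 19. The same share was 18.3 and 12.5% without Ccr7, 40.8 (27.0 to 55.8) and 27.3% in the Vcan class, 20.2 and 28.6% in the Gpnmb class, 24.8 and 17.2% in Cd209a barcodes, 15.4 and 11.5% in CD4 and 6.49 and 3.61% in CD8 T barcodes. Pdcd1lg2 was in 33.0 and 57.7% of Ccr7 barcodes and in 0 of 153 Cd209a barcodes at day 13, where 2.61% had a UMI before thinning. Vsir was in 86.6 and 75% of Fscn1 barcodes without Ccr7 and in 14.0 and 11.5% of those with it. At day 19 a single Ccr7 barcode held between 12.2 and 15.6% of the UMIs of Cd274, Pdcd1lg2, Cd80, Cd86 and Cd40.

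**Figure D3:**
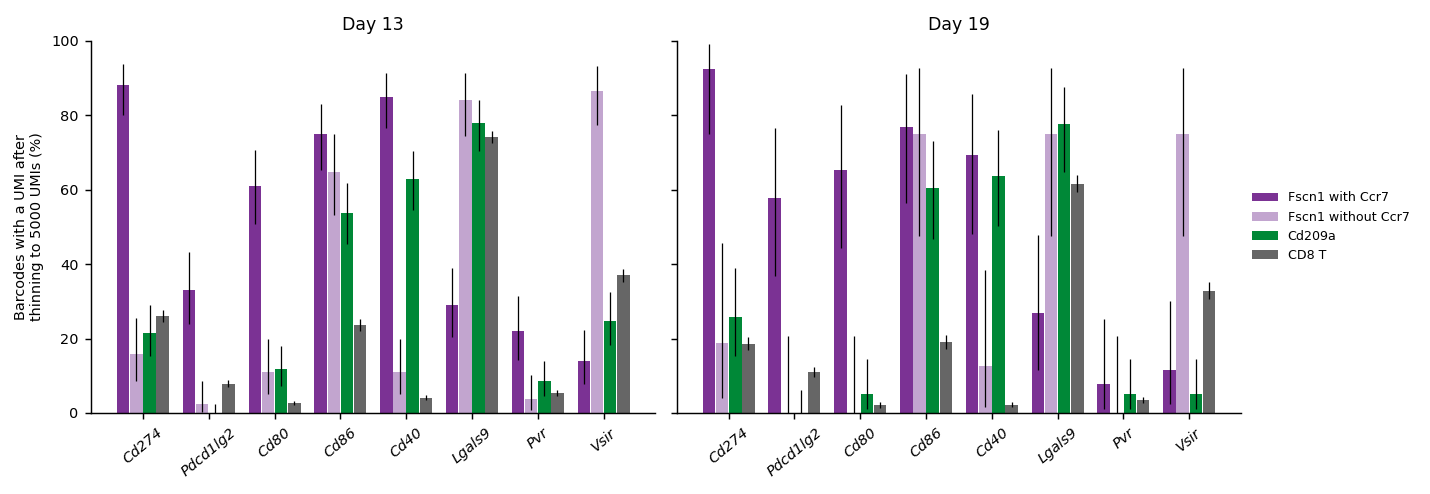
Share of barcodes with at least 1 UMI of each of the 8 genes after thinning to 5000 gene UMIs (percent) in 4 classes at day 13 (left) and day 19 (right), with exact 95% binomial intervals as lines. At day 13 Cd274 is found in 88.0% of Fscn1 barcodes with Ccr7 and in 26.1% of CD8 T barcodes.

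Among the T barcodes, CD4 exceeded CD8 in all 8 genes on both days, though only Cd80 and Cd40 were past 2-fold at day 13 (13.2% of all genes tested). At day 19 Cd86 was so too, at 102 against 51.2 CPM (13.6%). RNA of other cells moved with this comparison. At least 1 UMI of 9 myeloid genes was in 65.5 and 73.9% of CD4 and in 39.2 and 47.9% of CD8 T barcodes, and the list of 13 macrophage genes, none at 0, summed to 7194 and 9051 CPM in CD4 and to 2196 and 3381 CPM in CD8. In T barcodes with none of the 9 genes, Cd40 stayed higher in CD4 (32.4 against 2.96 CPM at day 13, and 16.9 against 0.907 CPM at day 19), while Cd86 did not differ by 2-fold (54.0 against 56.7, and 41.2 against 33.8 CPM). This Cd40 level in CD4 rests on few barcodes. After thinning, 13 of 275 at day 13 and 5 of 207 at day 19 had a Cd40 UMI. At day 13, 1 barcode held 22.2% of the Cd40 UMIs before thinning. Cd80 stood at 7.20 and 15.3 CPM in these CD4 and at 3.15 and 3.02 CPM in these CD8 barcodes. Cd40 and Cd80 were past 2-fold on both days, and Pdcd1lg2 at day 19 (67.6 against 29.3 CPM), with 7.41% and 8.32% of all genes higher. All CD8 T barcodes together had 27.3 CPM of Cd40 at day 13, well above the 2.96 CPM of those without myeloid RNA.

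Between the days, none of the 8 genes moved by 2-fold in CD8 T barcodes (6.45% of all genes did in either direction), and Cd40 alone did in CD4 (6.23%). Pdcd1lg2 was the only gene of the 8 with a higher day-19 level in both T classes. Over the 4 TCR contig sets of a day, CD8 Pdcd1lg2 was at 19.2, 20.5, 18.3 and 23.01 CPM at day 13 and at 28.7, 32.0, 29.7 and 30.8 CPM at day 19. In CD4 the sets gave 28.6, 25.8, 31.5 and 33.1 CPM and then 35.1, 54.7, 57.1 and 47.6 CPM. In neither class did a set of 1 day reach the range of the other, which held for 8.29% of all genes tested in CD8 and 9.14% in CD4 in this direction. The log2 differences were 0.62 (0.45 to 0.78) and 0.80 (0.58 to 1.03). How contig sets map to mice is not given in the labels, so they are shown for spread and not as replicates of a test.

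Lgals9 and Cd40 were lower at day 19 than in any day-13 set, in both classes. In all, 4 of the 8 genes were lower without overlap in CD8 sets and 3 of the 8 in CD4 sets, against 13% and 6.84% of all genes tested. Lgals9 lay between 331 and 419 CPM in CD8 sets at day 13 and between 210.0 and 256 CPM at day 19, with 414 to 494 and 317 to 385 CPM in CD4. Cd40 lay between 23.4 and 30.5 CPM and then between 9.39 and 20.8 CPM in CD8, with 83.2 to 104.5 and 13.4 to 62.9 CPM in CD4. The other genes lower without overlap were not shared. These were Cd86 and Vsir in CD8 and Pvr in CD4, and whether the classes differ was not tested. In T barcodes without myeloid RNA the sets of Cd86 in CD8 (44.7 to 76.03 and 8.56 to 45.2 CPM) and of Pvr in CD4 (11.5 to 16.1 and 0 to 15.7 CPM) overlapped, while those of Vsir in CD8 stayed apart (82.2 to 95.5 and 41.4 to 76.6 CPM). Cd274 sets overlapped in both classes, at 60.4 to 84.3 and 29.7 to 67.0 CPM in CD8. The log2 differences of Cd274 were -0.74 in CD8 and -0.71 in CD4.

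**Figure D4:**
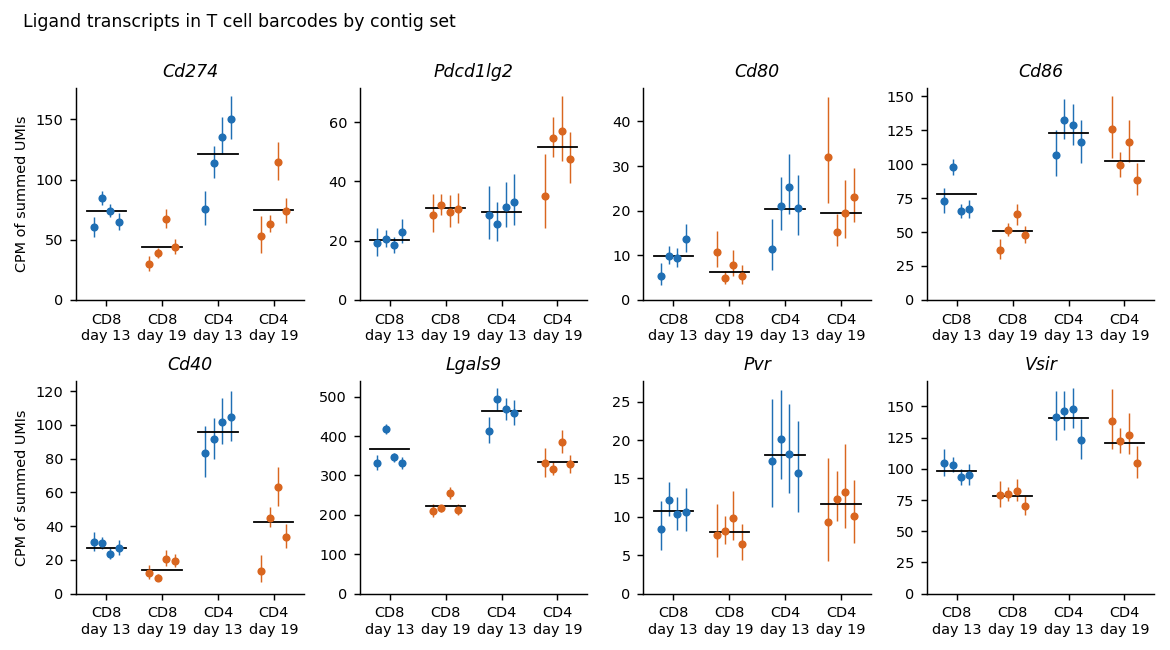
Level of each of the 8 genes (CPM, linear axis from 0) in the 4 TCR contig sets of day 13 (blue) and day 19 (orange), for CD8 and CD4 T barcodes, each point being 1 set with its exact Poisson 95% interval and the black line the level of the whole class. The Pdcd1lg2 points of day 19 lie above those of day 13 in both classes, and the Lgals9 and Cd40 points lie below.

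RNA outside cells differed in the same direction between the days for these 4 genes. In barcodes with at most 100 gene UMIs, which hold free RNA, Pdcd1lg2 went from 19.7 to 30.4 CPM, Lgals9 from 404 to 285 CPM, Cd40 from 71.8 to 24.7 CPM and Cd274 from 86.9 to 49.8 CPM. Cd80 went from 18.1 to 11.02 CPM and Cd86 from 79.1 to 62.3 CPM, while Vsir (87.7 and 84.7 CPM) and Pvr (12.3 and 12.5 CPM) were nearly the same on both days. The CD8 T levels of Lgals9 and Cd40 on both days, and of Cd274 and Cd80 at day 13, lay below the free levels without overlap of the counting intervals, and the other CD8 intervals overlapped. CD4 T levels ran the other way at day 13. There Cd274, Pdcd1lg2, Cd86, Cd40, Lgals9 and Vsir lay above the free levels without overlap, and Cd80 and Pvr overlapped. The part of free RNA in the T levels and in the day differences was not tested. Without myeloid RNA the Pdcd1lg2 difference was 0.80 in CD8 and 1.12 in CD4. The sets of the days stayed apart in CD8 (16.4 to 19.4 and 25.7 to 31.7 CPM) and overlapped in CD4 (20.1 to 46.2 and 35.7 to 75.01 CPM). Lgals9 sets likewise stayed apart in CD8 and overlapped in CD4 (336 to 575 and 249.6 to 338 CPM). Cd40 sets overlapped in both classes, at 0.939 to 6.12 and 0 to 3.65 CPM in CD8 and 5.77 to 58.9 and 0 to 25.003 CPM in CD4. The Cd40 difference was -1.71 in CD8, where day 19 rests on 9 UMIs with 77.8% of them in 1 barcode, and -0.94 in CD4, no longer past 2-fold. Pdcd1lg2 and Cd80 (1.09) were past 2-fold higher at day 19 in CD4 without myeloid RNA, against 3.03% of all genes. The macrophage list was higher at day 19 in both T classes, as given above, while other myeloid lists were lower. Type 2 dendritic cell genes summed to 9382 and 8488 CPM in CD4 and to 2233 and 1964 CPM in CD8. Mature dendritic cell genes summed to 936 and 821 CPM in CD4 and to 606 and 446 CPM in CD8. Monocyte genes summed to 3227 and 2094 CPM in CD4 and to 4110 and 3189 CPM in CD8. The part of any of these lists in the Cd40 difference was not tested.

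In Ccr7 barcodes the day-19 levels of Cd274 and Pdcd1lg2 were above those of day 13 by 0.41 (0.15 to 0.67) and 0.85 (0.31 to 1.38), and Cd40 was below by -0.85 (-1.18 to -0.54). Only Pvr was past 2-fold, at -1.53, from 55 and 5 UMIs (7.87% of all genes were lower). By multiplexing tag Cd40 lay between 368 and 846 CPM at day 13 and between 79.8 and 174 CPM at day 19 without overlap (5.74% of all genes were lower in this way and 1.93% higher), but only 9 barcodes of day 19 carried a tag. The 17 without a tag had 539 CPM of Cd40 (430 to 669), against 753 CPM (672 to 843) in the 46 without a tag at day 13, a smaller difference than between the tagged barcodes. The tags of Cd274 overlapped. In the whole Fscn1 class 1 of 8 genes, Pvr, was past 2-fold lower at day 19 (8.52% of all genes). In Fscn1 barcodes without Ccr7, 16 at day 19, 2 of the 6 genes tested, Cd40 and Cd80, were past 2-fold lower (15.1% of all genes).

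Within CD8 T barcodes without myeloid RNA, those with a UMI of Pdcd1 were compared with those without. At day 13 Cd80 had 5.58 CPM in 698 Pdcd1 barcodes and 0.854 CPM in 1101 others, a log2 difference of 2.71, and at day 19 the difference was 2.95 from 27 and 3 UMIs. It was the only gene of the 8 past 2-fold at day 13 (8.39% of all genes were higher). Cd86 differed by 0.96 and 1.38 and Pdcd1lg2 by 0.61 and 1.28, while Cd274 differed by 0.12 and -0.71. At day 19 Cd80, Cd86 and Pdcd1lg2 were past 2-fold (8.07% of all genes were higher). The Pdcd1 barcodes were deeper, with a median of 8403 gene UMIs against 6645 at day 13 and 10691 against 7410 at day 19, and the part of depth was not tested. Within CD4 T barcodes without myeloid RNA, 76 with Foxp3, the regulatory T cell factor, had 86.3 CPM of Cd86 and 64.0 CPM of Cd40 at day 13, against 40.01 and 18.7 CPM in 199 without (5.25% of all genes were higher). At day 19 the differences were 1.13 for both genes and 2.06 for Cd80 (32.0 against 7.69 CPM), where 5.75% of all genes were higher. The Cd40 value of the Foxp3 barcodes at day 13 rests on 43 UMIs, 37.2% of them in 1 barcode. The Cd40 value of day 19 rests on 16 UMIs, 50% of them in 1 barcode. Without the barcodes of multiplexing tag 2 at day 13 the day-13 differences were 0.03 for Cd86 and 0.69 for Cd40. Without those of tag 2 at day 19 the day-19 Cd86 difference was -0.00158.

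The binding partners of the 8 proteins were mostly T cell genes. Pdcd1, the PD-1 gene, had 201 and 266 CPM in CD8 and 146 and 252 CPM in CD4 T barcodes, and 52.5 and 30.5 CPM in Ccr7 barcodes. Ctla4 had 174 and 182 CPM in CD8 and 307 and 485 CPM in CD4, and Cd28 had 156 and 104 CPM in CD8 and 188 and 165 CPM in CD4. Of the receptors of Pvr, Tigit had 146 and 220 CPM in CD8 and 218 and 423 CPM in CD4, Cd226 had 86.0 and 66.4 CPM in CD8, and Cd96 had 63.2 and 91.7 CPM in CD8. Cd40lg, the CD40 ligand, had 117 and 91.4 CPM in CD4 and 7.94 and 3.26 CPM in CD8. Havcr2, the TIM-3 gene, had 33.9 and 57.8 CPM in CD8 and 163 and 116 CPM in Fscn1 barcodes without Ccr7. Selplg, the PSGL-1 gene bound by VISTA, had 897 and 772 CPM in CD8 and 2427 and 1537 CPM in Fscn1 barcodes without Ccr7, and Cd44, which galectin-9 can bind, had 69.6 and 71.9 CPM in CD8. Igsf11, a further VISTA ligand, was at or near 0. Of the 10 binding partners tested in the Fscn1 class against CD8 T barcodes at day 13, 2 were higher (21.7% of all genes) and 7 lower (19.1%).

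Genes that govern PD-L1 were also divided by Ccr7. Of 10 interferon gamma and PD-L1 control genes tested, 5 were higher and 2 lower with Ccr7 than without at day 13, against 13.8% and 29.7% of all genes. At day 19, 5 were higher and 3 lower, against 25.2% and 21.3%. Irf1, which binds the Cd274 promoter in the interferon gamma response, had 618 and 605 CPM against 255 and 77.2 CPM. Ifngr1, the ligand-binding receptor chain, ran the other way, with 105 and 148 CPM against 521 and 412 CPM. Of 12 other checkpoint and costimulatory ligands tested at day 13, 7 were higher and 2 lower with Ccr7, against the same 13.8% and 29.7%. Cd47, which binds SIRP alpha on phagocytes, had 747 and 818 CPM against 259 and 232 CPM, while Cd48, an adhesion ligand, had 34.2 and 47.9 CPM against 139 and 154 CPM.

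Antibody tags gave a second readout for 6 of the 8 proteins, as UMIs of a tag per 10000 antibody UMIs. The CD274 tag had 28.5 (27.1 to 30.1) and 55.0 (49.7 to 60.7) in Ccr7 barcodes, against 10.6 and 14.2 in Fscn1 barcodes without Ccr7 and 11.4 and 12.1 in Cd209a barcodes. Gpnmb barcodes had 28.1 and 52.8, with intervals that overlapped those of the Ccr7 barcodes on both days, although their Cd274 RNA was lower. The isotype control IgG1 had 25.7 and 24.6 in Ccr7 barcodes, IgG2a had 19.4 and 18.9, and IgG2b had 11.99 and 12.2. The day-13 CD274 level was near that of IgG1 and above those of IgG2a and IgG2b. CD8 T barcodes had 13.0 and 22.1, but at day 19 a single barcode held 19.9% of those UMIs. The CD86 tag was 79.9 and 56.5 in Ccr7 barcodes and 24.4 and 24.5 in Cd209a barcodes, which had 329.7 and 309 CPM of Cd86 RNA. The CD80 tag was 67.4 and 78.7 in Ccr7 barcodes and 51.0 and 51.7 in CD8 T barcodes.

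The other tags did not divide the classes. CD273, the tag of PD-L2, lay between 20.1 and 28.3 in all classes, and the isotype control IgG1 between 21.9 and 29.3. CD40 lay within 99 to 122 in all classes, whose Cd40 RNA ranged widely. VISTA lay between 105 and 131 except at 206 in CD4 T barcodes of day 19, where 1 barcode held 45.3%. The CD3 tag, which the sort selected for, also lay within 74 to 92 in every class, T barcodes included, so a tag at a like level in all classes is not read as protein. Median antibody UMIs per barcode were 4303 at day 13 and 2266.5 at day 19 in CD8 T barcodes.

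**Figure D5:**
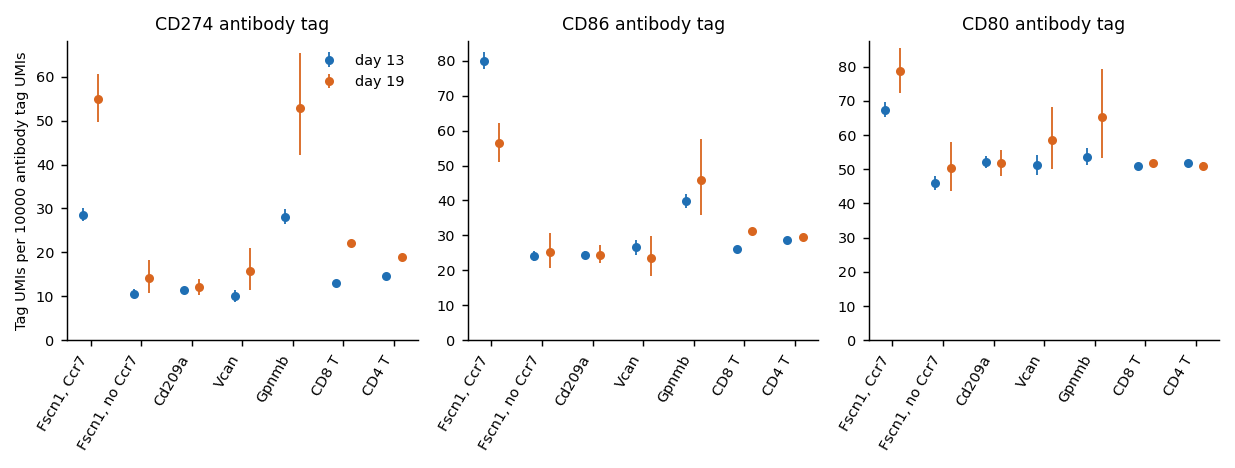
UMIs of the CD274, CD86 and CD80 antibody tags per 10000 antibody UMIs, by barcode class, at day 13 (blue) and day 19 (orange), with 95% Poisson intervals. CD86 and CD80 are highest in Fscn1 barcodes with Ccr7 on both days. CD274 is at like levels in these and in Gpnmb barcodes, with the day-13 level of the Ccr7 barcodes near that of the isotype control IgG1.

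Over the 12 class and day levels, of 11208 genes compared, those most like Cd274 were Sbf2 (Pearson r of log2 levels 0.924), Slc4a2 (0.912) and Dok1 (0.911). Those most like Pdcd1lg2 were Ly75 (0.976), the endocytic receptor DEC-205 of dendritic cells, Odf2l (0.972) and Socs2 (0.966). Morf4l1 was most like Cd80 (0.957), Myo1c most like Cd86 (0.968), Ube2l6 most like Cd40 (0.979) and Chmp4b most like Lgals9 (0.953). Fbh1 was most like Pvr (0.870) and Zmynd15 most like Vsir (0.961). Among the 8 genes themselves the highest r was between Cd86 and Cd40 (0.877). The 12 points share captures and, for the 6 classes of a day, free RNA, so these are descriptions. The Fscn1 class entered them whole, so its points mix barcodes with and without Ccr7. Zmynd15 is on the list of mature dendritic cell genes used above, while Vsir was low in the Ccr7 barcodes. Likeness within the divided Fscn1 class was not tested.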

How the data were processed

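Per the file headers, Cell Ranger made the deposited matrices. Their values are raw UMI counts of each feature in each barcode, unfiltered, with 32285 genes, 138 antibody tags and 4 multiplexing tags. The submitters' processing notes name mm10, bcl2fastq 2.20, Cell Ranger 4.0.0, STAR 2.7.5c, Seurat and R 4.1.2, without roles. The deposited TCR tables, 4 per day, list contigs with UMI counts per contig, and a barcode's table is its contig set. Set and highest multiplexing tag matched for 98.9 to 100% of barcodes at day 13 and 86.7 to 92.1% at day 19. All 14 files were used, and totals were 144565182 and 81224453 gene UMIs.

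Barcodes were classed as in the report, and UMIs were summed per class and day with Python 3.11.15, numpy 2.4.6, scipy 1.17.1 and pandas 2.3.3. A level has an exact Poisson 95% interval, and a log2 ratio an exact conditional binomial one. A gene was tested where the pair of sums held 20 UMIs or more, and called past 2-fold, which with 1 capture a day is a rule of size and no test. A sum of 0 was set to 3 UMIs over the class. Where that put the empty class above the other, the gene was not tested. A barcode had a tag with at least 10 multiplexing UMIs and 60% of them on 1 tag. Shares were computed after thinning to 5000 UMIs, leaving out none, with exact Clopper-Pearson intervals, and the scripts were tested on simulated data. PCR copies are removed by UMIs, and intervals cover counting error only.

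The 8 genes, the classes and the lists were chosen with earlier results of these data known, and the division by Ccr7 after the marker levels were seen. Named genes are the 8, the 3 most like each (here the first for some), all listed receptors, and at most 4 genes of each other list with the most UMIs. Likeness left out genes under 50 UMIs over the 12 sums. Alternatives changed the UMI minimum, the mitochondrial limit, the split minimum, the overlap of classes, the rule on TCR RNA, myeloid RNA in T barcodes, depth, tag purity, the weighting and centring of levels, the gene filter and each multiplexing tag left out, and, added later, the Ccr7 division. A gene of the interferon gamma list is not reported here by name.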

Additional observations from a re-analysis of the deposited data

Results flagged for a closer look

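The day-19 level against the day-13 level of the same gene lay above in at least 1 of the 6 classes and below in another for 3 genes, counting only genes with at least 20 UMIs and ratios whose counting interval excludes 0. These differences between classes were not tested. Cd274 differed by 0.46 on the log2 scale in Fscn1 barcodes, against -1.27 in Gpnmb barcodes, -0.74 in CD8 T barcodes and -0.71 in CD4 T barcodes. Cd80 differed by 1.37 in Vcan barcodes against -0.64 in CD8 T barcodes. Cd86 differed by 1.56 in Gpnmb barcodes against -0.61 in CD8 and -0.26 in CD4 T barcodes. The day-19 Gpnmb and Vcan classes hold 7 and 11 barcodes, and their marker genes differed between the days. In the Vcan class 8 glioma and stroma genes summed to 2.38 CPM at day 13 (7 at 0) and 749.9 CPM at day 19 (5 at 0), and 10 type 2 dendritic cell genes to 1887 and 6189 CPM. In the Gpnmb class the same dendritic cell genes summed to 13293 and 27166 CPM with 1 and 4 of the 10 at 0, so fewer of them gave the larger sum. There 7 microglia genes summed to 1309 and 2764 CPM, and 19.0 and 42.9% of the Gpnmb barcodes had at least 2 microglia UMIs. The part of these markers in the differences was not tested. Each class is 1 capture a day, so a difference between captures enters every value.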

How the results depend on the processing

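Over both days, 44 gene and class pairs were past 2-fold against CD8 T barcodes, 31 between classes and 8 between days. Leaving out 1 multiplexing tag at a time gave 40 to 45, 29 to 32 and 7 to 10. With at least 1 UMI of the split gene the count between days was 4, and every other alternative run stayed within 1.5 times of the 3 counts. Without the deepest 8% of barcodes, which stands in for a doublet caller, the counts were 42, 31 and 10, and 75 of the 82 called ratios that had a value kept their call. Of 83 called ratios, 46 kept their call under all 22 alternatives.

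Directions that turned mostly concern Vsir. With only Ccr7 barcodes without microglia genes in the Fscn1 class, its ratio to CD8 T barcodes was -2.47 and -2.98 at day 13 and day 19, to Cd209a barcodes -1.52 and -1.91, and to Gpnmb barcodes -2.86 at day 13. With at least 4 UMIs of the split gene the day-19 ratio to CD8 T barcodes was -0.62. Pvr in Gpnmb against CD8 T barcodes at day 19 was -0.23 with at least 1 UMI of the split gene. Cd86 in CD4 T barcodes with Foxp3 against those without at day 19 ranged from -0.00158 to 1.81 with 1 tag left out. The cause was not tested.

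For the division of Fscn1 barcodes by Ccr7 no call of the 8 genes changed at day 13, while at day 19 Cd86 was 0.87 without tag 1 and Lgals9 -0.98 with overlapping classes. Vsir in the whole Fscn1 class against CD8 T barcodes was 0.52 at day 13 with a minimum of 8000 UMIs, and Pdcd1lg2 was 0.50 there at day 19 and 0.94 at day 13 without tag 3. Cd40 in CD4 T barcodes between days was -0.76 with a minimum of 2000 UMIs.

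Without the gene filter, counts over all genes moved by over 1.5 times in 32 of 47 comparisons: for the Ccr7 division from 3113 to 5146 at day 13 and from 1367 to 3383 at day 19, for CD8 T barcodes between days from 829 to 1690, and for Fscn1 against Cd209a barcodes at day 13 from 2356 to 3792. The Ccr7 division gave 2004 at day 13 with 8000 UMIs and 762 at day 19 with 80% tag purity. CD4 against CD8 T barcodes gave 1401 in place of 2301 and 1483 in place of 2262 without myeloid RNA. Shares moved in 59 of 96 cases without thinning and in 79 of 96 with at least 2 UMIs required. No paired analysis was possible because the labels give no replicate numbers and tie no tag or contig set to a mouse or pool. Depth limits Pvr and Pdcd1lg2, which rest on under 20 UMIs in many classes.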
